A study of Komagataella pastoris with 6 samples.

Results

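The fusel route, also called the Ehrlich route, disposes of 2-oxoacids, the carbon skeletons that amino acids leave when they lose their amino group. Of the 5030 genes measured, 6 genes of its later steps are described here, chosen by product description. They are 2 phenylpyruvate decarboxylases (gene-PAS_chr4_0314 and gene-PAS_chr3_0095), 2 alcohol dehydrogenases (the mitochondrial isozyme III, gene-PAS_chr2-1_0472, and the NADPH-dependent medium-chain enzyme gene-PAS_chr1-1_0357) and 2 mitochondrial aldehyde dehydrogenases (gene-PAS_chr3_0987 and gene-PAS_chr4_0470), named below without the prefix. The choice used no measured value, but it was made with earlier results of these data known. All 6 genes passed the filter on low values.

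In the baker's yeast *Saccharomyces cerevisiae* an aminotransferase first makes the 2-oxoacid, and a thiamine diphosphate-dependent decarboxylase such as Aro10 then turns it into an aldehyde. Alcohol dehydrogenases reduce that aldehyde to a fusel alcohol, and aldehyde dehydrogenases oxidise it to a fusel acid. The enzyme Ilv3, dihydroxyacid dehydratase, forms the 2-oxoacids from which valine and isoleucine are made, and which the same route can take up. The roles of the 6 genes are known here from their descriptions alone, and no enzyme activity or metabolite was measured.

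Messenger RNA was measured in the methylotrophic yeast *Komagataella pastoris*, long known as *Pichia pastoris*. The control was strain HTX-33, genotype WT per the labels, and the engineered strain HTX33_ILV3 overexpresses Ilv3 in that background. Both grew to exponential phase in a salt medium with 0.5% methanol, with 3 biological replicates per strain, and the sources used here give neither the promoter driving Ilv3 nor the number of clones. Levels were treated as TPM, a share of the library scaled for transcript length and set to a sum of 1000000, so in these bulk cultures fewer expressing cells and less RNA per cell cannot be told apart. Comparisons of level between genes rest on that length scaling, which the files do not state. The depth of each library is unknown, and therefore no counting interval is given.

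The labels were checked first with ILV3 (PAS_chr1-4_0458), which lay between 79.8 and 91.9 TPM in the control libraries and between 2564 and 2680.1 TPM in the ILV3 libraries. AOX1 (PAS_chr4_0821), the alcohol oxidase that marks growth on methanol, reached at least 20873 TPM in every library. Its level was not equal between the strains: the ILV3 libraries averaged 30219.1 TPM, against 21686.5 TPM for the control libraries, with no overlap. In the fit described below its log2 fold change was 0.48 (limma adjusted p = 0.0002). The number of genes listed at 0 TPM ranged from 10 to 20 per library.

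Changes are given as the ILV3 strain over the control, as log2 fold changes of TPM + 1, a scale that makes changes of weak transcripts look smaller. They were fitted with limma over 5025 genes, and a gene was called at a Benjamini-Hochberg adjusted p under 0.05. Of the 6 genes 4 fell, and 2 gave no call. Of all tested genes 27.2% were called lower and 22.1% higher. The same 4 genes had no overlap between the strains' libraries, and 30.5% of all tested genes were separated in that direction. The median log2 fold change of the 6 genes was -0.80, beside -0.02 for all tested genes, of which the middle 90% lay between -0.70 and 0.53. By role, 1 of the 2 decarboxylases, 1 of the 2 alcohol dehydrogenases and both aldehyde dehydrogenases were called lower.

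**Figure D1:**
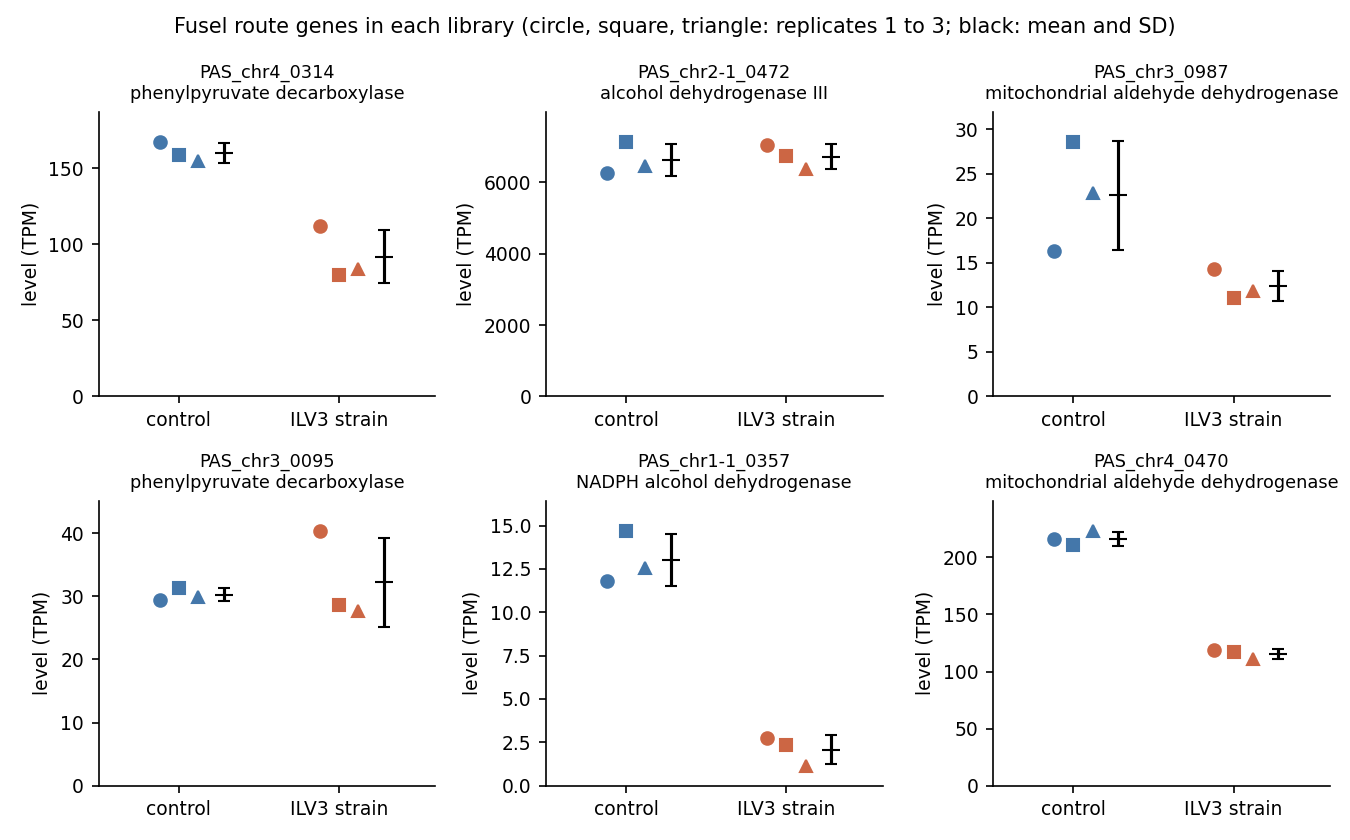
Levels of the 6 fusel route genes in TPM (vertical axes, each from 0) in the 3 control and 3 ILV3 libraries, with mean and SD in black. The 4 genes PAS_chr4_0314, PAS_chr1-1_0357, PAS_chr3_0987 and PAS_chr4_0470 have every ILV3 library below every control library, while PAS_chr3_0095 and PAS_chr2-1_0472 overlap.

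The decarboxylases open this part of the route by removing carbon dioxide from the 2-oxoacid. PAS_chr4_0314 was at 167, 159 and 155 TPM in the control libraries and at 112, 80.1 and 83.8 TPM in the ILV3 libraries. Every ILV3 library lay below every control library, with replicate 1 of the ILV3 strain the highest of its strain. The mean fell from 160.2 ± 6.46 to 91.9 ± 17.3 TPM (SD, n = 3 each). Its log2 fold change was -0.81 (SE 0.11, limma adjusted p = 0.000306), with a 95% interval from -1.06 to -0.56.

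PAS_chr3_0095, which carries the same product name, was the weaker transcript, at 29.4, 31.4 and 29.95 TPM in the control libraries and at 40.3, 28.7 and 27.7 TPM in the ILV3 libraries. The strains overlapped, because ILV3 replicate 1 lay above all control libraries and the other ILV3 libraries lay below them. The log2 fold change was 0.068 (SE 0.13, limma adjusted p = 0.681), and its 95% interval, from -0.22 to 0.35, holds changes from -14.0% to 27.8%. Without ILV3 replicate 1 the estimate turned to -0.10 (limma adjusted p = 0.294), so no direction can be given for this gene.

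The ratio of the decarboxylase transcripts was compared between the strains, and within the ILV3 strain it varied less than either level. PAS_chr4_0314 exceeded PAS_chr3_0095 by 5.69-fold, 5.05-fold and 5.16-fold in the control libraries and by 2.77-fold, 2.795-fold and 3.03-fold in the ILV3 libraries. The ratios of the strains did not overlap, and ILV3 replicate 1, in which both genes were high, had nearly the ratio of ILV3 replicate 2. The log2 ratio, with 1 added to each level, differed by -0.88 (ILV3 strain minus control). This difference did not pass an exact two-sided permutation test, with p = 0.1, the smallest that 3 against 3 libraries allow, and p = 0.15 after adjustment over the 3 pairs of genes tested.

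Both alcohol dehydrogenases are of enzymes that interconvert aldehydes and alcohols, but their levels lay far apart. The mitochondrial isozyme PAS_chr2-1_0472 ranked 12th of all genes by mean level in either strain. It was at 6269.8, 7124 and 6466 TPM in the control libraries and at 7047, 6741 and 6356 TPM in the ILV3 libraries. The ILV3 libraries lay within the range of the control libraries, and the means were 6620.0 ± 448 and 6715 ± 347 TPM (SD, n = 3 each). The log2 fold change was 0.021 (SE 0.061, limma adjusted p = 0.797), with a 95% interval from -0.12 to 0.16, that is a change of -7.86% to 11.8%. The sign of this estimate changed with quantile normalization (-0.029), so the data give it no direction.

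That isozyme made up from 93.4% to 96.6% of the summed level of the 6 genes, so a sum over the route would mostly report it. The other 5 genes together came to 441, 444 and 443 TPM in the control libraries and to 288, 239 and 235 TPM in the ILV3 libraries. The control sums lay within a few TPM of each other, and all ILV3 sums were lower.

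PAS_chr1-1_0357, the NADPH-dependent medium-chain alcohol dehydrogenase described as having broad substrate specificity, was the weakest of the 6 genes and changed most. It was at 11.8, 14.7 and 12.5 TPM in the control libraries and at 2.76, 2.36 and 1.13 TPM in the ILV3 libraries. All control libraries lay far above the highest ILV3 library. The mean fell from 13.0 ± 1.49 to 2.08 ± 0.849 TPM (SD, n = 3 each), so the control mean was 6.24-fold that of the ILV3 strain. The log2 fold change was -2.22 (SE 0.21, limma adjusted p = 3.19e-05), and only 11 of the 5025 tested genes had a lower one. Because the level is low, the size depends on the constant added before the logarithm: it was -1.35 with 5 added and -2.67 with 0.1 added, and the call held with both. A mean of 10 TPM over the libraries, the stricter filter tried, would remove this gene.

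The ratio of PAS_chr2-1_0472 to PAS_chr1-1_0357 lay between 486 and 531 in the control libraries and at 2553, 2856 and 5624 in the ILV3 libraries. The difference in log2 ratio was 2.24, with 1 added to each level, and did not pass (exact two-sided permutation p = 0.1, the smallest possible, and 0.15 adjusted over the 3 pairs). As for the decarboxylases, this test cannot pass with so few libraries, so it does not decide whether the genes responded differently. The limma intervals of the log2 fold changes were apart: -2.69 to -1.75 for PAS_chr1-1_0357 and -0.12 to 0.16 for PAS_chr2-1_0472. Those of PAS_chr4_0314 (-1.06 to -0.56) and PAS_chr3_0095 (-0.22 to 0.35) were apart too, and the ratios overlapped in neither pair.

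Aldehyde dehydrogenases stand on the oxidising branch, which ends in acids. The descriptions of PAS_chr4_0470 and PAS_chr3_0987 name no substrate, so their place in the route is inferred from the enzyme name. PAS_chr4_0470 was at 216, 210.4 and 223 TPM in the control libraries and at 119, 117 and 111 TPM in the ILV3 libraries. Replicates lay close together in both strains, with a coefficient of variation of 2.88% in the control and 3.77% in the ILV3 strain, the smallest of the 6 genes in each. The mean fell from 216 ± 6.24 to 115 ± 4.35 TPM (SD, n = 3 each), and the log2 fold change was -0.90 (SE 0.05, limma adjusted p = 6.76e-07).

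PAS_chr3_0987 was the less abundant of the aldehyde dehydrogenases and, with a coefficient of variation of 27.2%, the most variable of the 6 genes in the control. It was at 16.3, 28.6 and 22.9 TPM in the control libraries and at 14.3, 11.1 and 11.8 TPM in the ILV3 libraries. The strains did not overlap, but control replicate 1 lay just above ILV3 replicate 1. The mean fell from 22.6 ± 6.14 to 12.4 ± 1.70 TPM (SD, n = 3 each), with a log2 fold change of -0.79 (SE 0.18, limma adjusted p = 0.00553). The ratio of PAS_chr3_0987 to PAS_chr4_0470 overlapped between the strains, from 0.0756 to 0.136 in the control libraries and from 0.0947 to 0.120 in the ILV3 libraries. The log2 ratio differed by 0.11 between the strains (exact two-sided permutation p = 0.8, also 0.8 adjusted over the 3 pairs; the smallest possible is 0.1), and without control replicate 1 this difference was -0.095. At this sample size the test cannot show whether the aldehyde dehydrogenases changed by different amounts.

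**Figure D2:**
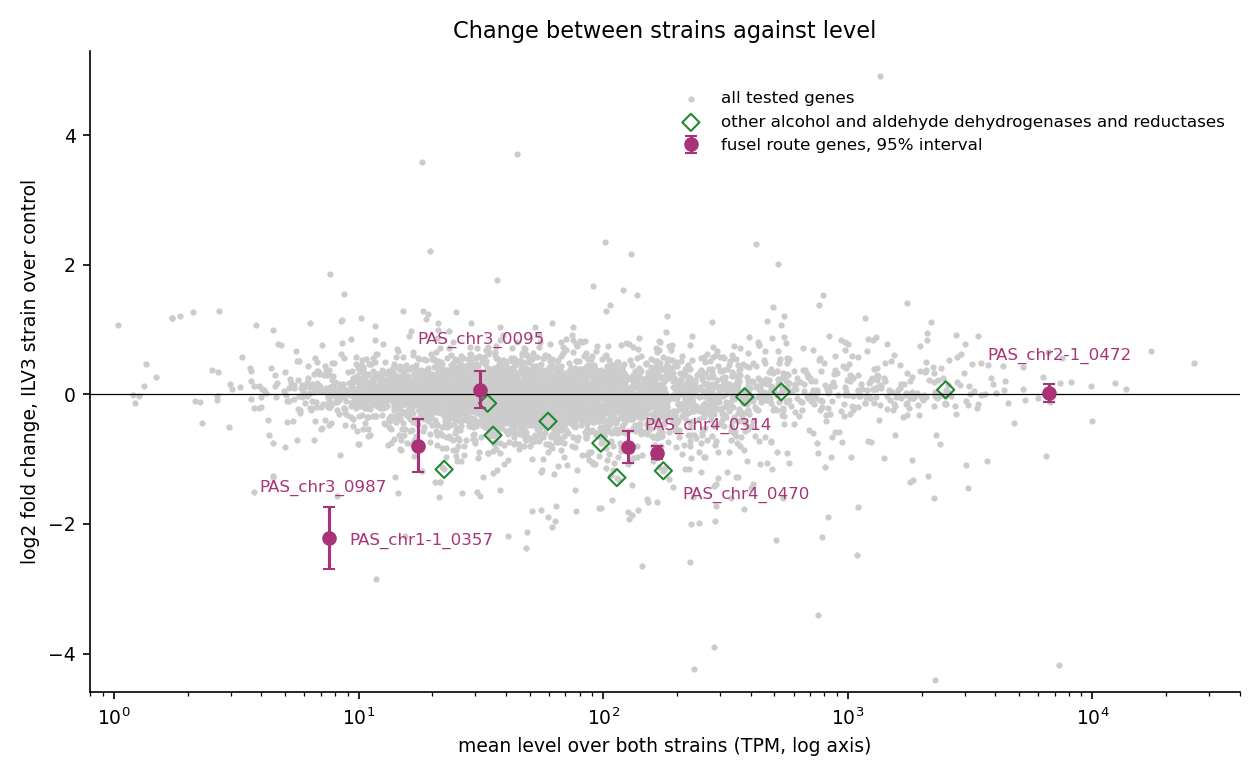
Log2 fold change of the ILV3 strain over the control (vertical axis) against mean level in TPM (horizontal log axis) for all 5025 tested genes in grey, with the 6 fusel route genes and their 95% intervals in purple and other alcohol and aldehyde dehydrogenases and reductases as green diamonds. The lowest purple point is PAS_chr1-1_0357 at -2.22, and PAS_chr2-1_0472 lies near 0 at the far right.

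Other genes share the product names of these enzymes, and the sources used here do not say how reads were divided between similar copies. In all 4 genes are described as mitochondrial aldehyde dehydrogenase, and 3 of them fell. Besides PAS_chr4_0470 and PAS_chr3_0987 these include PAS_chr2-1_0506, which fell from 43.3 ± 1.07 to 27.6 ± 0.635 TPM (log2 fold change -0.63, limma adjusted p = 1.53e-05). The most abundant gene of that name, PAS_chr4_0043, had 527 ± 52.6 TPM in control libraries and 540.4 ± 47.0 TPM in ILV3 libraries, and did not pass the test (limma adjusted p = 0.733). The summed level of the 4 genes went from 809 ± 54.9 to 696 ± 52.8 TPM, untested. The share of that sum held by PAS_chr4_0470 and PAS_chr3_0987 was 29.6% ± 1.67 in the control and 18.4% ± 0.613 in the ILV3 strain (SD, n = 3 each).

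Of the 3 genes described as NADPH-dependent medium-chain alcohol dehydrogenases, 2 fell. PAS_chr3_0006, the most abundant, fell from 123 ± 3.70 to 72.5 ± 2.80 TPM (log2 fold change -0.75, limma adjusted p = 2.93e-06). PAS_chr4_0576, whose description matches that of PAS_chr1-1_0357 word for word, was at 35.3 ± 2.70 and 32.0 ± 3.18 TPM and did not pass the test (limma adjusted p = 0.209). PAS_chr1-1_0357 held 7.59% ± 0.824 of their summed level in the control and 1.95% ± 0.787 in the ILV3 strain (SD, n = 3 each).

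**Figure D3:**
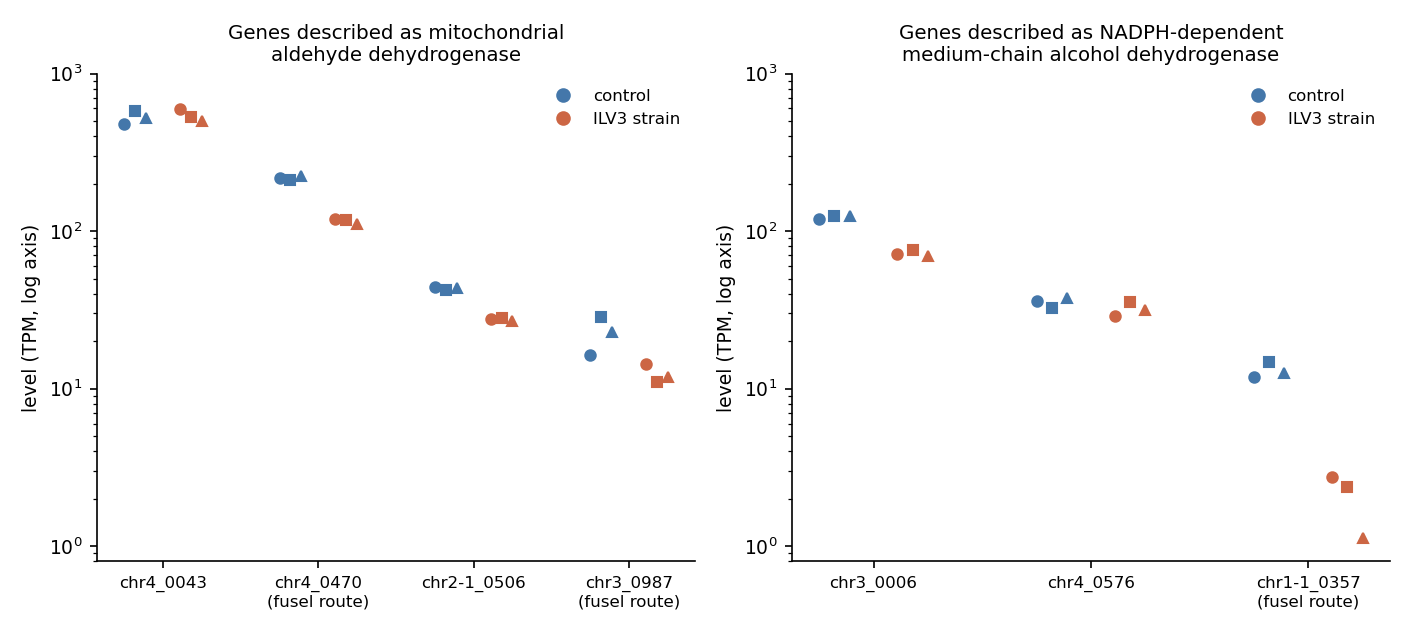
Levels in TPM (log axes) of the 4 genes described as mitochondrial aldehyde dehydrogenase and the 3 described as NADPH-dependent medium-chain alcohol dehydrogenase, ordered by control mean, with circles, squares and triangles for replicates 1 to 3. In each set 1 gene has overlapping strains, chr4_0043 on the left and chr4_0576 on the right.

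Genes with related functions were listed by words in their product names, without the 6 genes. Such lists also hold enzymes of other pathways, such as aspartic beta semi-aldehyde dehydrogenase (PAS_chr3_0471), so their counts do not describe the fusel route alone. They stand beside 27.2% lower and 22.1% higher among all tested genes. Of 8 other aldehyde dehydrogenases and reductases, 5 fell and 3 were not called, and the median log2 fold change was -0.52. Succinate semialdehyde dehydrogenase (PAS_chr1-3_0024), which in yeast acts in the breakdown of gamma-aminobutyrate, fell from 162 ± 5.28 to 65.7 ± 1.16 TPM (log2 fold change -1.29, limma adjusted p = 6.40e-08). A putative fatty aldehyde dehydrogenase (PAS_chr1-4_0064) fell from 245 ± 12.6 to 107 ± 3.53 TPM, a log2 fold change of -1.18. The gene PAS_chr1-1_0360 is described as a 2-methylbutyraldehyde reductase that may be involved in isoleucine catabolism. Its place in the fusel route is inferred from that named substrate, the aldehyde made from isoleucine. It fell from 31.2 ± 1.49 to 13.5 ± 1.99 TPM (log2 fold change -1.16, limma adjusted p = 2.20e-05), with no overlap between strains.

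Of 3 other alcohol dehydrogenases, 1 fell, PAS_chr3_0006 described above, and the list's median log2 fold change was -0.14. A bifunctional enzyme with alcohol and formaldehyde dehydrogenase activity (PAS_chr2-1_0313), which both dehydrogenase lists hold, was at 2451 ± 184 and 2567 ± 53.0 TPM. It did not pass the test (limma adjusted p = 0.344), and passed upward only without control replicate 2 (0.0268; range over the alternatives 0.0268 to 0.743).

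The steps before the aldehyde moved differently by gene. Of 3 aminotransferases of aromatic and branched-chain amino acids, which form the 2-oxoacids, 1 rose and 2 did not pass the test. The riser was the mitochondrial branched-chain aminotransferase (PAS_chr4_0248), with a log2 fold change of 0.43 (limma adjusted p = 0.000549). Aromatic aminotransferase II (PAS_chr4_0147) was at 58.96, 64.3 and 57.0 TPM in the control libraries and at 66.5, 43.1 and 44.6 TPM in the ILV3 libraries. It had a log2 fold change of -0.25 (limma adjusted p = 0.190), and without ILV3 replicate 1 it was called lower at -0.44 (0.00138; range over the alternatives 0.00138 to 0.482). Aromatic aminotransferase I (PAS_chr1-4_0608) was at 119 ± 2.44 and 112 ± 6.36 TPM (limma adjusted p = 0.212).

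Of 8 genes matched to other 2-oxoacid decarboxylases and dehydrogenase complexes, 2 rose and 3 fell. By description all 8 are parts or regulators of dehydrogenase complexes, so the list holds no further phenylpyruvate decarboxylase and no gene described as another decarboxylase. The risers were the E1 alpha subunit (PAS_chr2-2_0294) and the E1 beta subunit (PAS_chr1-4_0593) of pyruvate dehydrogenase, with log2 fold changes of 0.26 and 0.25. The genes that fell were a subunit described under alpha-ketoglutarate dehydrogenase (PAS_chr2-1_0089, log2 fold change -0.37), the dihydrolipoyl transsuccinylase of the same complex (PAS_chr1-3_0094, -0.31) and a mitochondrial phosphatase that regulates pyruvate dehydrogenase (PAS_chr4_0218, -0.34). The median of the list was 0.01.

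Thiamine diphosphate is the cofactor of the decarboxylases and of pyruvate dehydrogenase. All 3 genes matched to its synthesis changed, but not in 1 direction. Thiazole synthase (PAS_chr3_0648) rose from 915 ± 45.8 to 1685 ± 33.7 TPM (log2 fold change 0.88, limma adjusted p = 8.18e-07). Thiamine pyrophosphokinase (PAS_chr3_0052) rose by 0.18 on the log2 scale (limma adjusted p = 0.0226), a call lost when the fit was blocked on replicate number (0.0507) and without control replicate 1, ILV3 replicate 1 or ILV3 replicate 2 (up to 0.0743, the highest over its alternatives, which start at 0.00231). A gene of hydroxymethylpyrimidine synthesis (PAS_chr4_0065) was at 61.2, 124 and 50.8 TPM in the control libraries and at 36.2, 40.6 and 20.4 TPM in the ILV3 libraries. Its log2 fold change was -1.20 (limma adjusted p = 0.0147), and the call was lost with robust empirical Bayes (0.111; range 3.80e-05 to 0.111).

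Branched-chain synthesis, which supplies the 2-oxoacids, had 4 genes higher and 2 lower of 10 matched. The risers include the engineered ILV3 and the aminotransferase PAS_chr4_0248, already counted among the aminotransferases. The other risers were isopropylmalate isomerase (PAS_chr2-1_0368, log2 fold change 0.33) and beta-isopropylmalate dehydrogenase (PAS_chr3_0039, 0.34), both of leucine synthesis. Acetolactate synthase (PAS_chr4_0228, -0.26) and threonine deaminase (PAS_chr1-4_0243, -0.29) fell. The list of acetate activation and ester formation matched a single gene, an acetyl-CoA hydrolase (PAS_chr3_0253), which fell from 304 ± 7.80 to 255 ± 11.2 TPM (log2 fold change -0.25). With each gene counted once, the lists held 34 genes, of which 8 rose, 13 fell and 13 did not pass the test. The risers include the engineered ILV3. Among all tested genes 22.1% were called higher and 27.2% lower, and no set test was run on the lists.

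Within the ILV3 strain, 1 library was the highest for every one of the 6 genes. All 6 had their highest ILV3 value in replicate 1, as did 36% of all tested genes. The excess differed by gene: relative to the control mean PAS_chr4_0314 stood at 0.698, 0.500 and 0.523 in ILV3 replicates 1 to 3, and PAS_chr3_0095 at 1.33, 0.947 and 0.914. Aromatic aminotransferase II, an upstream step for phenylalanine and tyrosine in *S. cerevisiae*, shared that shape at 1.11, 0.717 and 0.742, while aminotransferase I stood at 0.995, 0.948 and 0.888. PAS_chr4_0470 differed little, at 0.550 in replicate 1 and 0.511 in replicate 3. ILV3 replicate 1 did not stand apart over the whole table: its median absolute deviation from the strain mean was 0.039 on the log2 scale, the lowest of the 6 libraries. Leaving out that library moved the log2 fold change of PAS_chr4_0314 from -0.81 to -0.96. In the control, 4 of the 6 genes (PAS_chr3_0095, PAS_chr2-1_0472, PAS_chr1-1_0357 and PAS_chr3_0987) had their highest value in replicate 2, as did 826 of 5025 tested genes. Control replicate 2 had the largest median absolute deviation of the 6 libraries, 0.072, and without it PAS_chr4_0314, PAS_chr1-1_0357, PAS_chr3_0987 and PAS_chr4_0470 were still called lower. What sets these libraries apart for these genes was not tested.

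**Figure D4:**
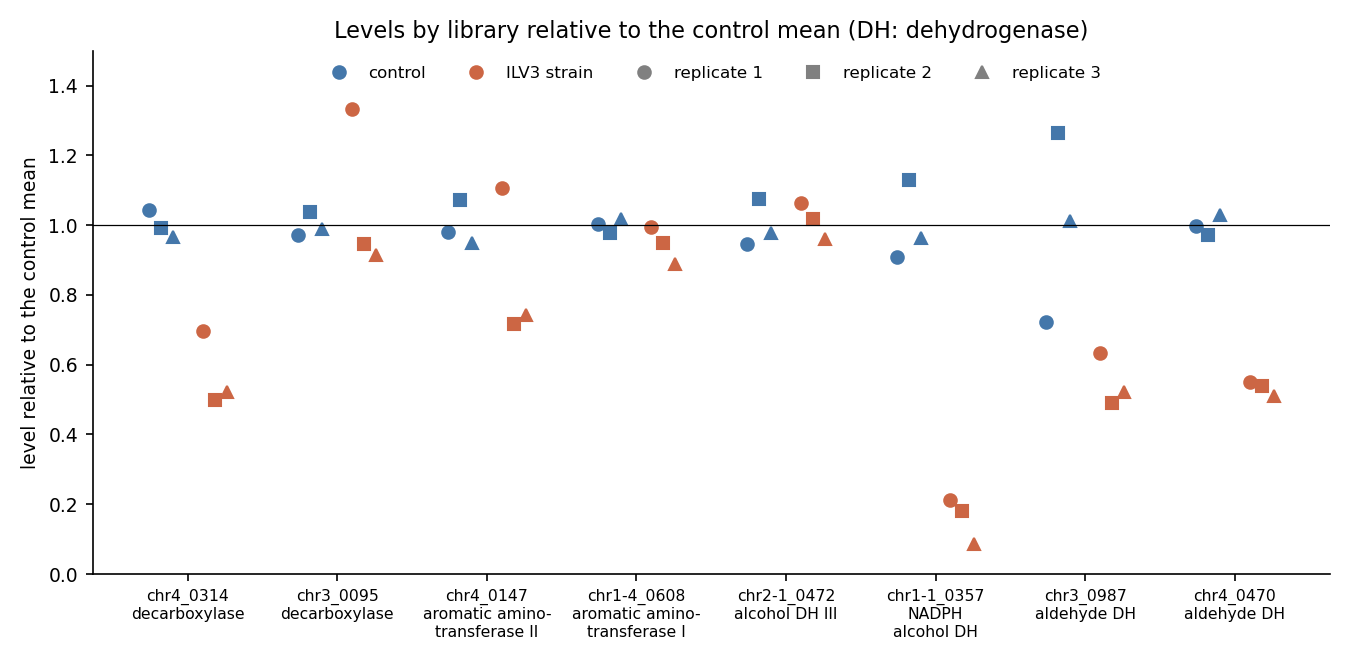
Level of each fusel route gene and of the aromatic aminotransferases in every library, relative to the mean of the 3 control libraries (vertical axis; the line marks 1), with circles, squares and triangles for replicates 1 to 3. In ILV3 replicate 1 both decarboxylases and aminotransferase II lie above the other ILV3 libraries, at 0.698, 1.33 and 1.11.

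Profiles most like each gene were taken over the 6 libraries as the smallest root mean square distance between centred log2(TPM + 1) values, among genes with a product name. A highest library shared with such a gene largely follows from that choice and is no separate result. PAS_chr4_0314 was closest to the genes of translation initiation factor eIF1A (PAS_chr2-1_0741, distance 0.07) and a general amino acid permease (PAS_chr1-1_0030, 0.09), and both of these were also highest in ILV3 replicate 1 within their strain. PAS_chr3_0095 was closest to a spermine transporter (PAS_chr1-3_0215, 0.07) and an ABC transporter of the plasma membrane (PAS_chr4_0832, 0.08), both weakly expressed. The abundant PAS_chr2-1_0472 was closest to acetylornithine aminotransferase (PAS_chr4_0645) and to the bifunctional formaldehyde dehydrogenase PAS_chr2-1_0313, each at a distance of 0.04.

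Among the aldehyde dehydrogenases, PAS_chr4_0470 was closest to a glycerol proton symporter (PAS_chr3_1099) and a GPI-anchored aspartic protease (PAS_chr4_0584), each at 0.03. PAS_chr3_0987 was closest to a putative protein-methionine-R-oxide reductase (PAS_chr4_0843, 0.14) and a putative xylose and arabinose reductase (PAS_chr2-1_0573, 0.21), whose highest library is likewise control replicate 2. The nearest to PAS_chr1-1_0357 was farther off, an ER-associated glutathione S-transferase (PAS_chr2-2_0116, 0.28).

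Neighbouring locus tags were compared after the values were seen. Tag numbers stand in for position here, as no coordinates of this annotation were used. Within 3 tag numbers of the 6 genes the table holds 34 genes, of which 10 fell, 9 rose and 15 did not pass the test. These counts lie near the shares over all tested genes, 27.2% lower and 22.1% higher, so no local pattern is read from them. Around PAS_chr1-1_0357, 2 of 6 neighbours fell, namely the 2-methylbutyraldehyde reductase PAS_chr1-1_0360 and, by 0.29 on the log2 scale, the unnamed PAS_chr1-1_0359. The tags next to PAS_chr1-1_0357 on both sides did not pass the test, with limma adjusted p of 0.730 for PAS_chr1-1_0356 and 0.0548 for the ceramide synthase component PAS_chr1-1_0358. Around PAS_chr4_0470, 4 of 6 neighbours were called higher and 1 lower.

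In the authors' deposited table all 6 genes have the same sign of change as here. The authors' deposited table gives log2 fold changes of -2.63 for PAS_chr1-1_0357, -0.89 for PAS_chr4_0470, -0.86 for PAS_chr3_0987 and -0.79 for PAS_chr4_0314. For PAS_chr3_0095 and PAS_chr2-1_0472 the authors' deposited table gives 0.10 and 0.04, with p-values of 0.568 and 0.557, and whether those are adjusted is not stated.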

How the data were processed

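Messenger RNA libraries were made with a stranded ligation kit, per the labels' protocols. HISAT2, TopHat2 and DESeq2 are named in the submitters' processing notes, without versions or roles. The sources used here name no genome build or annotation. The deposited values are named FPKM but sum to 1000000 in every library, so they were treated as TPM as deposited by the authors. CPM would sum likewise, but values under 20 were not whole multiples of any step tried. On a grid of steps from 0.05 to 0.6, at most 28.0% of them fell on a step within rounding. A step lying between grid points could be missed, so CPM is not excluded. Smaller steps cannot be resolved at 2 decimals, so length scaling was assumed. The authors' own log2 fold change and p-value, deposited per gene, were only copied.

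A mean of 1 TPM or more over the libraries was required, which kept 5025 genes and removed 5. A linear model of log2(TPM + 1) was fitted in R 4.3.3 (limma 3.58.1, trended variance, two-sided), and p-values were adjusted by Benjamini-Hochberg over the 5025 genes. No locus tag was found in the reference gene table (0 of 5030), and 2197 genes have no product name. Intervals are 95% intervals of the limma fit. Ratios between genes were compared with exact permutation tests over libraries. Only the limma fit was tried on simulated data, with independent noise in each library, so deviations shared by replicates were not covered.

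Named genes were the 6 fusel route genes, ILV3, up to 3 called genes per list (those changed most), and the 2 nearest profiles of each of the 6, of which 1 is not reported here; other list genes, such as PAS_chr2-1_0506, and the tag neighbours were added after their values were seen. AOX1 marked growth on methanol. The 6 genes and the lists were chosen with earlier results of these data known. Same-numbered replicates of the strains deviated together from their strain means, with r across genes from 0.126 to 0.223, against -0.220 to 0.0412 for other pairings. What the numbers share is not stated in the labels. A fit blocked on the replicate number was run beside the unblocked one. The other alternatives were an added constant of 0.1 or 5, a filter at 10 TPM or none, median-ratio and quantile scaling, no trend, robust empirical Bayes and each library left out.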

Additional observations from a re-analysis of the deposited data

How the results depend on the processing

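The 4 genes called lower kept that call under each of the 15 alternatives, except that a filter at a mean of 10 TPM removed PAS_chr1-1_0357 and left 3. Over all alternatives the log2 fold change ranged from -0.96 to -0.72 for PAS_chr4_0314, from -2.67 to -1.35 for PAS_chr1-1_0357, from -0.997 to -0.61 for PAS_chr3_0987 and from -0.92 to -0.81 for PAS_chr4_0470, with limma adjusted p up to 0.00352, 0.000932, 0.025 and 1.14e-05. PAS_chr2-1_0472 and PAS_chr3_0095 changed sign under some alternatives and were called under none of them. With quantile normalization PAS_chr2-1_0472 was at -0.029. With 1 library left out it ranged from -0.017 to 0.075, PAS_chr3_0095 ranged from -0.10 to 0.16, and the change in the log2 ratio of the aldehyde dehydrogenases ranged from -0.095 to 0.31.

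With the replicate number as a block (replicate block), PAS_chr1-1_0357 was at -2.22 with an adjusted p of 5.85e-06, and the block changed no call of the 6 genes; it left 1 riser in the thiamine list. Over all genes, 1228 were lower and 983 higher with the block, beside 1365 and 1113. Of the calls over all genes 55.1% were lower, and 45.9% with quantile normalization; no scaling moved the median log2 fold change of all genes by more than 0.1. List counts under the alternatives were added after the data were seen. With quantile normalization 4 genes of the 2-oxoacid complexes were called higher, in place of 2, and with robust empirical Bayes 0 thiamine genes were lower, in place of 1. With 1 library left out, the other alcohol dehydrogenases and the other aldehyde dehydrogenases had 0 to 1 genes higher, the aminotransferases 0 to 1 lower and the thiamine list 1 to 2 higher. The cause of these shifts was not tested. Exact tests of 2 against 3 libraries cannot go below 0.2, and the unknown depth limits the precision of the weak gene PAS_chr1-1_0357.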
